A study of Danio rerio with 3 samples.

Results

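The smooth muscle contractile genes measured here were acta2, tagln, myl9a, tpm1 and myh11a, 5 of 15548 named genes on the array. They were taken as the probes whose annotated gene symbol is one of these 5, which gave 5 of 43603 probes, 1 for each gene. An additional probe annotated as zgc:171719 belongs to tpm1 under the current gene table, and it was averaged with the other tpm1 probe. The tested embryos were zebrafish of strain AB injected with 7.5 ng of a morpholino (MO), a synthetic nucleic acid analogue that pairs with a transcript and here covers a splice site, directed against the splice donor site of slc2a10 exon 2, kept to 48 hours post fertilization and sorted for a visible Class 1 phenotype. The control embryos were of the same strain and age and had received 5 ng of a control MO. Each of 3 slc2a10 MO replicates held RNA of 10 to 15 whole embryos, and control RNA was combined into 1 pool that was hybridised beside each replicate on a two-colour array. MO dose and sorting by phenotype differed between the groups along with the target, so their parts cannot be told apart, and the pool gives no spread between control embryos.

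Smooth muscle cells wrap arteries, gut and other hollow organs and contract when myosin filaments pull on actin filaments. Acta2 encodes the smooth muscle alpha-actin of the thin filament, tpm1 a tropomyosin that lies along actin, and tagln the actin-binding protein transgelin. Myl9a encodes a regulatory light chain whose phosphorylation switches the myosin on, and myh11a the smooth muscle myosin heavy chain. In vertebrates these genes are used as markers of mural cells of the vessel wall, the layer affected in the human disease caused by loss of GLUT10, the glucose transporter family member that slc2a10 encodes. Acta2, tagln and tpm1 are also used outside smooth muscle, tpm1 in heart and skeletal muscle among others.

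The injected oligomers are shown because they define the comparison. Capitals mark the letters complementary to GTAAGT, a common start of an intron at a splice donor site. They were searched on this strand of both oligomers and found in the slc2a10 MO only. Other donor sequences were not searched, so this does not show that the control MO matches none.
slc2a10 MO: caaataaagtccACTTACttggt
control MO: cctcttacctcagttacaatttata

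All values below are log2 ratios between the slc2a10 MO sample and the control pool of the same array. Which channel is the numerator is unstated in the labels, so the direction of the whole table is unknown, and signs are given relative to slc2a10. A positive value lies on the slc2a10 side, a negative value opposite to it. With Cy3 as the numerator, a positive value means more RNA in slc2a10 MO embryos, and with Cy5 as the numerator it means more in the control pool. The log base is also not stated, and base 2 was assumed. The sign of replicate 2, the dye-swapped array, was turned because Pearson's r over all features was -0.65 between it and replicate 1 and -0.69 between it and replicate 3, but 0.48 between the 2 arrays that share a dye order. With its deposited sign kept, limma called 0 of the members, and 0 had an unadjusted p under 0.05. The same fit called 0 of all 15548 named genes, and 28 had an unadjusted p under 0.05. The count of 0 was thus not particular to the members. For slc2a10 itself the values were 0.50, 0.42 and 0.47. A splice-blocking MO need not change the amount of transcript, so this value does not check the labels.

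The members split into 3 genes opposite to slc2a10, 1 gene on its side and 1 with no detected difference. Acta2, tagln and myl9a lay on the opposite side, tpm1 lay on the slc2a10 side, and myh11a stayed near 0. A limma fit across all named genes, at a Benjamini-Hochberg adjusted p under 0.05, called 4 of the 5 members. The background was 19.3% of named genes called on either side, made up of 11.1% with slc2a10 and 8.16% opposite to it. On all 3 arrays 4 members kept 1 sign, as did 50.1% of named genes. The members had been chosen with earlier results of these data known, so their share is a description. The embryos were measured whole, and a difference in the number of smooth muscle cells cannot be told apart from a difference in RNA per cell, in either direction of the table.

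**Figure D1:**
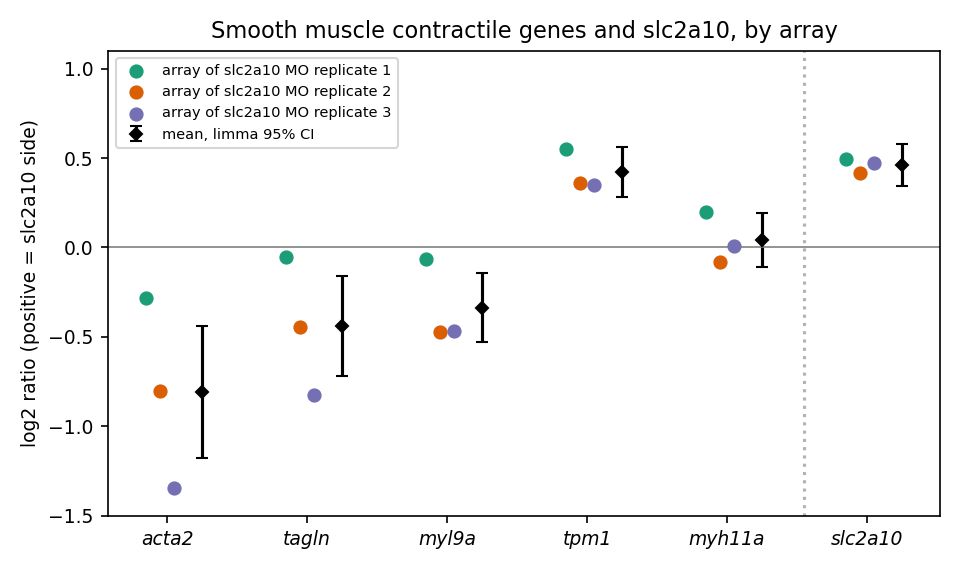
Log2 ratio (vertical axis, positive on the slc2a10 side) of the 5 smooth muscle contractile genes and of slc2a10. Coloured points are the 3 arrays, and black diamonds with bars are the mean with limma's 95% confidence interval. Acta2, tagln and myl9a lie below 0 on every array with replicate 1 nearest to 0, tpm1 lies above 0 on every array, and myh11a straddles 0.

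For the thin filament, acta2 had -0.28, -0.80 and -1.34 on replicates 1, 2 and 3. All of them were on the opposite side, but replicate 3 lay more than 1 log2 unit beyond replicate 1. The mean was -0.81 ± 0.53 (SD, n = 3), a 1.75-fold difference with a 95% confidence interval of -1.18 to -0.44 in log2 (limma adjusted p = 0.0099). On replicate 3 acta2 ranked 8 among 15548 genes from the opposite end, on replicate 2 it ranked 35, and on replicate 1 it ranked 911. By its mean it ranked 32. Its SD over the arrays exceeded that of 99.8% of named genes. Without replicate 3 its mean was -0.54 (adjusted p = 0.0087), and without replicate 1 it was -1.07 (adjusted p = 0.00019). Acta2 did not pass under robust eBayes (adjusted p = 0.058), nor under an ordinary t statistic (adjusted p = 0.34). The ordinary t statistic called only 2 of the 15548 named genes, so that second loss was not particular to acta2. Robust eBayes called 2995 named genes and kept 2986 of the 2996 calls of the main fit. The loss of acta2 under robust eBayes was thus shared by few genes.

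Tagln, which encodes the actin cross-linker transgelin, had -0.05, -0.44 and -0.82 on replicates 1, 2 and 3. Replicate 1 was close to 0, with 32.5% of named genes lower, whereas on replicate 3 only 0.174% of genes were lower. The mean was -0.44 ± 0.39 (SD, n = 3), a 1.36-fold difference with a 95% confidence interval of -0.72 to -0.16 (limma adjusted p = 0.039). The call was lost without replicate 3 (mean -0.25, adjusted p = 0.11), without replicate 2 (mean -0.44, adjusted p = 0.063) and with robust eBayes (adjusted p = 0.069). Over all named genes the calls fell from 2996 to 2527 without replicate 3 and to 1556 without replicate 2. With robust eBayes few other genes lost their call, as described for acta2.

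Tpm1 ran the other way. Its annotated probe gave 0.52, 0.38 and 0.27 on replicates 1, 2 and 3, and the probe annotated as zgc:171719 gave 0.58, 0.34 and 0.43. Both probes were on the slc2a10 side on every array, with probe means of 0.39 and 0.45 and adjusted p over all probes of 0.0046 and 0.0022. Averaged, tpm1 had 0.42 ± 0.11 (SD, n = 3), a 1.34-fold difference with a 95% confidence interval of 0.28 to 0.56 (limma adjusted p = 0.0024). It was called without each replicate in turn, with means between 0.36 and 0.46.

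For the myosin motor, the light chain gene myl9a had -0.07, -0.47 and -0.47 on replicates 1, 2 and 3. Replicates 2 and 3 nearly coincided and replicate 1 was near 0. The mean was -0.34 ± 0.23 (SD, n = 3), a 1.26-fold difference with a 95% confidence interval of -0.53 to -0.14 (limma adjusted p = 0.026). The call was lost without replicate 2 (mean -0.27, adjusted p = 0.13) and without replicate 3 (mean -0.27, adjusted p = 0.089).

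The heavy chain gene myh11a had 0.20, -0.08 and 0.01 on replicates 1, 2 and 3. The values straddled 0, and replicate 1 was the highest. The mean was 0.04 ± 0.14 (SD, n = 3) with a 95% confidence interval of -0.11 to 0.19 (limma adjusted p = 0.73). This interval leaves out values as large as the other members' means, but it holds no spread between control embryos. Whether the signal of this probe lay above background is unknown, so the interval describes the measured ratio only. As deposited, before the turn of replicate 2, its values were 0.20, 0.08 and 0.01, all of 1 sign. A fit with a dye term gave myh11a 0.01 for the difference between samples and 0.09 for the dye. Replicate 2 was the only dye-swapped array, so the dye part cannot be told apart from other differences of that replicate. The same fit gave acta2 -0.81 for the samples and -0.006 for the dye, and tagln -0.44 and 0.002. For myl9a these parts were -0.37 and 0.10, and for tpm1 0.41 and 0.05. The 4 called members were called in that fit too (adjusted p between 0.0026 and 0.025).

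In order of their means the members ran from acta2 through tagln, myl9a and myh11a to tpm1. Tagln and myl9a were not separated, since tagln was the higher of the pair on replicates 1 and 2 and the lower on replicate 3 (mean difference -0.10 ± 0.22, SD, n = 3 arrays, exact two-sided sign-flip p = 1.0). In the other 9 of 10 pairs the order of the genes was the same on all 3 arrays. For instance, acta2 minus tpm1 was -0.84, -1.16 and -1.70 on replicates 1, 2 and 3. Each of these pairs gave an exact two-sided sign-flip p of 0.25, adjusted to 0.28 over the 10 pairs, and 0.25 is the smallest p that 3 arrays allow.

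Replicate 1 was the highest of the 3 arrays for all 5 members, against 42.7% of named genes. This was seen in the values and not planned. Replicate 1 minus replicate 3 came to 1.06 for acta2, 0.77 for tagln and 0.40 for myl9a, against 0.20 for tpm1 and 0.19 for myh11a. Only 0.0836% of named genes had a larger difference than acta2 and 0.302% a larger one than tagln. For myl9a it was 3.09%, for tpm1 16.6% and for myh11a 17.5%. The arrays as a whole had similar spreads, with an SD over named genes of 0.245, 0.219 and 0.223 on replicates 1, 2 and 3. Their limma array weights, higher for an array nearer to the gene means, were unequal at 0.508, 2.81 and 0.701. The slc2a10 probe itself differed by 0.03 between replicates 1 and 3. Among the other smooth muscle genes described below, 14 of 34 had replicate 1 highest. The same held for 19 of 28 endothelial markers, 10 of 16 fibroblast and sclerotome markers and 18 of 30 genes of the myosin light chain phosphorylation list. In the skeletal muscle list it held for 15 of 31 genes and in the heart list for 9 of 22. Mural cell markers gave 6 of 15, and the list of SRF and fate regulators 9 of 21. A high replicate 1 was thus not limited to the members, but it was not equally frequent in all lists.

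**Figure D2:**
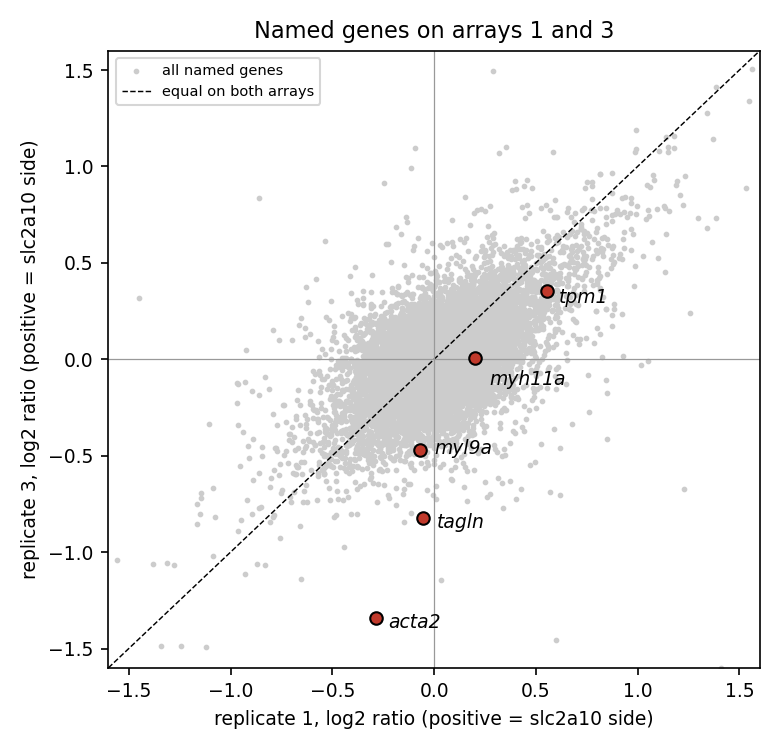
Log2 ratio on replicate 3 (vertical axis) against replicate 1 (horizontal axis), both positive on the slc2a10 side, for all named genes in grey and the 5 members in red, with 27 genes outside the axis limits of 1.6. All 5 members lie below the dashed line of equality, acta2 and tagln at the lower edge of the cloud.

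The genes most like each called member over the 3 arrays were found by Euclidean distance in log2 units, among genes that are not members. Nearest to acta2 was lyz, the lysozyme gene of myeloid cells, at a distance of 0.42. The co-chaperone gene fkbp4 followed at 0.53 and the complement gene c6.2 at 0.55. By its mean acta2 ranked 32 among 15548 genes from the opposite end, where few genes lie. Its larger distances therefore do not compare with those of the other members. Lyz had -0.44, -0.68 and -0.97 on replicates 1, 2 and 3. Tagln was nearest to pdk2b, encoding a pyruvate dehydrogenase kinase (0.07), followed by hikeshi, encoding a nuclear import carrier of heat shock proteins (0.12), and safb, encoding a nuclear scaffold attachment factor (0.16). The values of pdk2b were -0.11, -0.46 and -0.79. Myl9a was nearest to the haem synthesis gene cpox (0.07), to s100a10b (0.09) and to the Mediator subunit gene med11 (0.09). Tpm1 was nearest to the actin regulator gene coro1b (0.01), to mfge8a (0.03) and to gngt1, encoding a photoreceptor G protein gamma subunit (0.04). Without replicate 3 pdk2b was at the threshold (mean -0.29, adjusted p = 0.055), hikeshi was not called with all arrays (adjusted p = 0.052), and cpox, s100a10b and med11 lost their call without replicate 2 (adjusted p = 0.097, 0.093 and 0.063), med11 also without replicate 3 (adjusted p = 0.053). With 3 arrays such likeness is a description only.

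Set among their own families, the called members stood at the ends. They had been chosen with earlier results of these data known, so this place is a description. Actins are nearly identical in protein sequence, and where the probes lie and what else they bind is not stated, so signal from a paralog was not tested. Of 9 measured actin genes 6 passed (66.7% of the list, against 19.3% of all named genes), 3 with slc2a10 and 3 opposite. The member acta2 is itself counted among the 6. The skeletal alpha-actin gene acta1b had 0.59, 0.48 and 0.63 on replicates 1, 2 and 3, a mean of 0.57 ± 0.08 (adjusted p = 0.00044). Actc1b, a cardiac-type alpha-actin gene expressed in muscle, had 0.41 ± 0.11, and acte1 had 0.40 ± 0.18. Opposite lay acta1a at -0.25 ± 0.10 and actc2 at -0.20 ± 0.05 with acta2, but both lost their call without replicate 2 (adjusted p = 0.20 and 0.25). Actc2 also lost it without replicate 3 (adjusted p = 0.099). The cytoplasmic actin genes actb1 (0.04 ± 0.12) and actb2 (0.07 ± 0.09) and the cardiac-type gene actc1a (-0.04 ± 0.20) did not pass. Acta2 thus had the lowest mean of the 9, and on replicate 1 its value (-0.28) lay close to those of acta1a (-0.24) and actc1a (-0.24).

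Of 6 tropomyosin genes, 2 were called (33.3% of the list, against 19.3% of all named genes), both on the slc2a10 side. One of these is the member tpm1 itself, so the share partly restates the choice of members. Tpma, encoding a skeletal muscle tropomyosin, had 0.34, 0.15 and 0.59 on replicates 1, 2 and 3 (mean 0.36 ± 0.22, adjusted p = 0.017). It was at the threshold without replicate 3 (mean 0.25, adjusted p = 0.052). Tpm3 (0.18 ± 0.08, adjusted p = 0.054), tpm2 (0.11 ± 0.12) and tpm4a (0.07 ± 0.10) did not pass. Of 9 myosin II genes of smooth muscle and non-muscle type, myl9a alone was called (11.1% of the list). Its paralog myl9b had -0.18, -0.09 and 0.06 (mean -0.07 ± 0.12, 95% confidence interval -0.21 to 0.07), and myh11b had -0.05 ± 0.08. Of 8 transgelin and calponin genes, tagln alone was called (12.5% of the list), while tagln2 had 0.13 ± 0.09 and tagln3a -0.02 ± 0.08. The shares of the myosin II and of the transgelin and calponin genes were below that of all named genes. A difference between a member and its paralog was not tested.

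**Figure D3:**
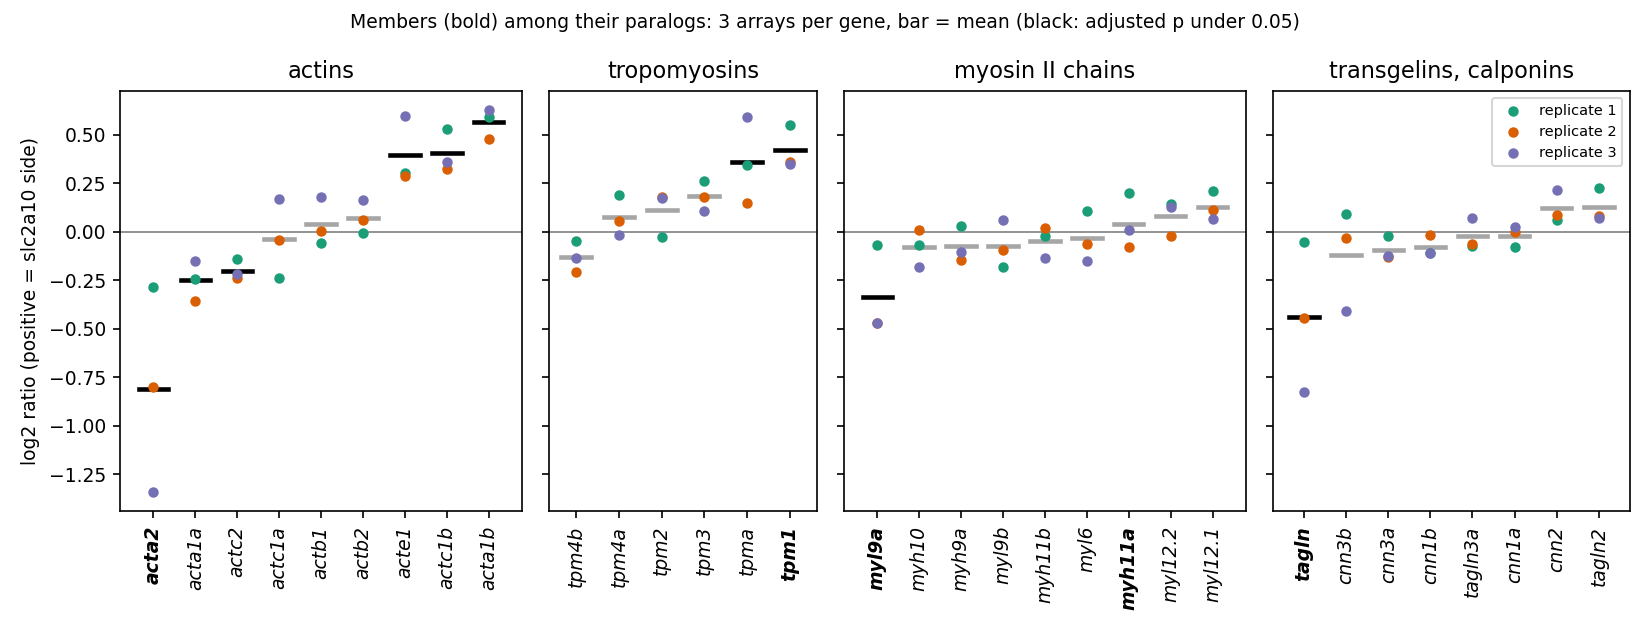
Log2 ratio (vertical axis, positive on the slc2a10 side) of actin, tropomyosin, myosin II and transgelin or calponin genes, ordered by mean, with members in bold. Points are the 3 arrays and bars the means, black where the adjusted p was under 0.05. Acta2, myl9a and tagln stand lowest in their families, and tpm1 highest in its own.

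Most genes of the wider smooth muscle apparatus did not pass. Of 47 other genes listed, covering calponins, caldesmon, smoothelins, desmins, vinculin and focal adhesion proteins, 34 were measured and 30 did not pass. The calls were 3 on the slc2a10 side and 1 opposite, 11.8% of the list against 19.3% of all named genes, and the list median was -0.02 against 0.007 for all named genes. On the slc2a10 side were synpo2b, encoding a synaptopodin of the Z-disc (0.31 ± 0.06), smtnl, a smoothelin-like gene (0.29 ± 0.08), and the Z-disc adaptor gene pdlim5b (0.27 ± 0.03). With the median of its 3 probes in place of their mean, pdlim5b was 0.45. Its probes thus differed, which the SD over arrays does not show. The intermediate filament gene desma, expressed in several muscle types, was opposite at -0.26 ± 0.01, with -0.25, -0.28 and -0.26 on replicates 1, 2 and 3. Pdlim5b and desma lost their call without replicate 2 (adjusted p = 0.060 and 0.082), leaving 2 called genes in the list, both on the slc2a10 side. Without replicate 2 the calls over all named genes also fell, from 2996 to 1556. Among further markers of smooth muscle, the calponin gene cnn1b had -0.11, -0.02 and -0.11 (mean -0.08 ± 0.05, 95% confidence interval -0.20 to 0.04). The smoothelin gene smtna had 0.14 ± 0.11 and desmb 0.02 ± 0.12, and neither passed.

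Markers of pericytes and mural cells gave 1 call among 15 measured genes, 6.67% of the list against 19.3% of all named genes. This was jag1a, encoding a Notch ligand, at -0.24, -0.27 and -0.43 on replicates 1, 2 and 3 (mean -0.31 ± 0.10, adjusted p = 0.0078), on the side of acta2. With the median of its 3 probes jag1a was -0.39. The receptor gene pdgfrb, which marks mural cells, had -0.02 ± 0.12 with a 95% confidence interval of -0.16 to 0.12. Notch3 had -0.12 ± 0.06, the channel genes abcc9 and kcnj8 had -0.01 ± 0.08 and 0.07 ± 0.12, and rgs5a had 0.18 ± 0.08. None of these 5 passed. The median of the list was 0.0.

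Serum response factor (SRF) and its myocardin-type partners switch on contractile genes. They were listed together with other regulators of smooth muscle fate. Of the 21 measured genes of this mixed list, 1 was called on each side (9.52% of the list, against 19.3% of all named genes). The endodermal and cardiac factor gene gata6 had -0.56, -0.31 and -0.17 on replicates 1, 2 and 3 (mean -0.34 ± 0.20, adjusted p = 0.016), with replicate 1 the farthest from 0, the reverse of acta2. Mef2cb, encoding a muscle transcription factor, had 0.43 ± 0.18 (adjusted p = 0.0050). The SRF genes srfa (0.05 ± 0.10) and srfb (0.04 ± 0.05) did not pass, and they are named here after their values were seen. Without replicate 3 this list held 4 called genes, and without replicate 2 it held 3.

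A list built around myosin light chain phosphorylation, the step acting on the product of myl9a, held calls on both sides. Not every gene in it sets that step. The list median was 0.02 over 30 measured genes. Of these 8 passed (26.7% of the list, against 19.3% of all named genes), 7 with slc2a10 and 1 opposite. Without replicate 1 these counts were 6 and 4, with array weights 8 and 5, and without replicate 2 they were 4 and 0. Over all named genes 2996 were called, against 3211, 5211 and 1556 in these settings, in the same order. Of those on the slc2a10 side, the phosphatase inhibitor gene ppp1r14ba had 0.88, 0.88 and 0.54 on replicates 1, 2 and 3 (mean 0.77 ± 0.20, adjusted p = 0.00049). The calmodulin gene calm2a had 0.35 ± 0.15 and mylipb, encoding a ubiquitin ligase named for binding myosin light chain, 0.35 ± 0.03.

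Skeletal and heart muscle share contractile genes with smooth muscle. Of 31 genes typical of skeletal muscle, 20 passed (64.5% of the list, against 19.3% of all named genes), 18 on the slc2a10 side and 2 opposite, with a list median of 0.29. This is the side of tpm1. Tpma is itself one of the 31 genes and of the 18 calls, so its side is no separate observation. The largest were the Z-disc gene myoz1a (0.80 ± 0.14), the troponin gene tnni2b.2 (0.72 ± 0.19), the parvalbumin gene pvalb2 (0.67 ± 0.22) and the fast myosin light chain gene mylpfa (0.59 ± 0.25). The skeletal muscle medians were 0.37, 0.21 and 0.33 on replicates 1, 2 and 3. Of 22 heart genes 5 passed, 3 with slc2a10 and 2 opposite, with a list median of 0.05. That is 22.7% of the list, near the share of all named genes. The part of skeletal or heart muscle RNA in the tpm1 value was not tested.

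Of 28 endothelial markers 5 passed, 4 opposite and 1 with slc2a10, with a list median of -0.04. That is 17.9% of the list, near the 19.3% of all named genes. The endothelial count was 1 without replicate 2, 1 without replicate 3 and 0 with the dye term in limma, where 6 had an unadjusted p under 0.05. Over all named genes 2996 were called, against 1556, 2527 and 2221 in these settings, in the same order. Of 16 fibroblast and sclerotome markers 4 passed (25% of the list), 2 on each side, among them the fibronectin gene fn1b at -0.61 ± 0.12 and the lumican gene lum at 0.33 ± 0.06. With the median of its 3 probes in place of their mean, fn1b was -0.84, so its probes differed. Without replicate 2 the fibroblast and sclerotome list held 2 called genes. The part of these cell types in the values of acta2, tagln and myl9a was not tested.

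**Figure D4:**
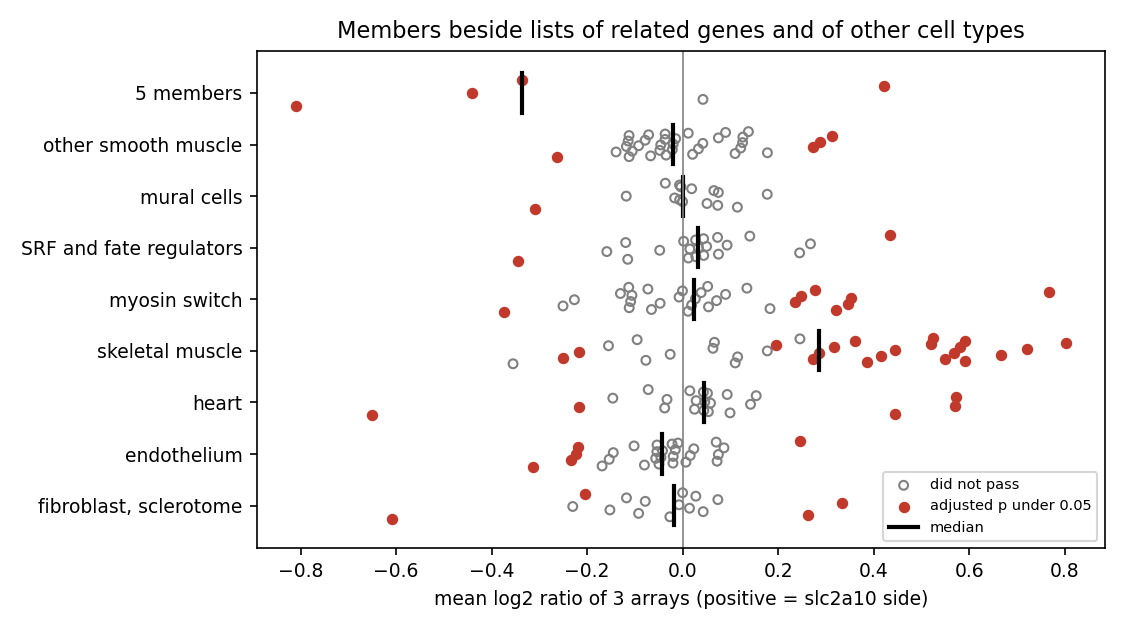
Mean log2 ratio of 3 arrays per gene (horizontal axis, positive on the slc2a10 side) for the 5 members and for lists of related genes and of other cell types. Filled red points passed an adjusted p of 0.05, open points did not, and black bars are list medians. The list of other smooth muscle genes is centred at -0.02, the skeletal muscle list at 0.29, and acta2 is the lowest point shown.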

How the data were processed

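The authors deposited a table of log ratios, 1 for each probe on each of 3 two-colour arrays, and these were taken as log2 values. As log10, the largest size of 4.85 would exceed the range of raw intensities from a 16-bit scanner. The scanner's range and the handling of background are not known here, so this does not settle the base. The submitters' processing notes name Partek. The sources used here do not give the correction of background or dye intensity, and signal above background and saturation are unknown. The deposited columns had medians within 0.01 of 0. The number of arrays limits the precision.

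From 43648 features 45 control spots were left out. Gene symbols came from GEO's platform annotation, updated with the RefSeq table of GRCz12tu by Entrez ID (23534 probes) or accession (42). Of the others 141 kept their symbol, and 19886 probes had no name here. A gene's probes were averaged. The mean ratio was tested against 0 with limma 3.58.1 (R 4.3.3, lmFit and eBayes) over all 15548 named genes, after a check on simulated data. The model treats the arrays as independent.

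The members and gene lists were chosen with earlier results of these data known. List names were matched by symbol or by an unambiguous synonym, and some lists share genes. The plan was to name all members and the list genes called (up to 4 by size) with close uncalled paralogs. It also held preset cell type markers and the 3 genes nearest to each called member. Not all of these are named, and the heart and endothelial lists are given by counts, shares and medians only. Alternatives left out each replicate and changed the dye model, sign, variance moderation, weights, scaling and probe summary. No sequence of a gene or probe was used here. A result among the genes of myosin light chain phosphorylation is not reported here.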

Additional observations from a re-analysis of the deposited data

How the results depend on the processing

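The number of named genes called was 2996, and between 1556 (without replicate 2) and 3211 when 1 replicate was left out. It was 5211 with array weights, 2 with an ordinary t statistic (3262 at an unadjusted p under 0.05) and 0 in limma when replicate 2 kept its deposited sign (28 at an unadjusted p under 0.05). Of the 5 members 4 were called, and between 2 and 4 when 1 replicate was left out. With robust eBayes 2 were called, myl9a and tpm1, and with an ordinary t statistic or the deposited sign 0 were. Over all named genes robust eBayes called 2995, of which 2986 were shared with the main fit.

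Acta2 was -0.81 with robust eBayes (adjusted p = 0.058) and with an ordinary t statistic (adjusted p = 0.34), and -0.28 with the deposited sign. Leaving out a replicate gave -1.07 to -0.54. Tagln was -0.44 with robust eBayes (adjusted p = 0.069) and an ordinary t statistic (adjusted p = 0.43), -0.15 with the deposited sign, and -0.63 to -0.25 when a replicate was left out. Myl9a was -0.34 with an ordinary t statistic (adjusted p = 0.36), -0.021 with the deposited sign and -0.47 to -0.27 when a replicate was left out. Tpm1 was 0.42 with an ordinary t statistic (adjusted p = 0.19) and 0.18 with the deposited sign. Myh11a, which was not called, was -0.0296 with array weights and -0.04 to 0.10 when a replicate was left out. The dye term, median centring, scale normalization, median of probes and single probes kept the 4 calls. The causes were not tested.

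Uncalled genes near 0 changed sign in places. With the deposited sign tpm2 was -0.011, tagln3a 0.020, smtna -0.037, pdgfrb 0.083, abcc9 0.028, kcnj8 -0.063 and srfa -0.047. Desmb was -0.005 with the dye term and -0.032 with array weights. Leaving out a replicate gave actc1a -0.14 to 0.063, actb1 -0.0265 to 0.092, tagln3a -0.068 to 0.005, desmb -0.046 to 0.073, pdgfrb -0.057 to 0.0497 and abcc9 -0.053 to 0.017. The list counts and the fits of list genes under these alternatives were added after the data were seen. Each value was already a ratio within 1 array, and the differences between members were taken within arrays too. No further pairing of samples was possible with 1 group of replicates. All replicates were set against the same control pool, so the arrays are not fully independent.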
